A study of Mus musculus with 13 samples.

Results

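Reactive astrocyte genes were described here as a set of 6 genes, Gfap, Vim, Serpina3n, Osmr, Stat3 and Cd44, matched by symbol among the 32285 genes of each library's count matrix, and all 6 were found. Single-nucleus RNA was sequenced from whole frozen hippocampus of 13 female mice, with 1 library per mouse. The animals were C3B6F1 hybrids according to the series' design text, and the strain field of the samples reads C3HB6F1. Of these, 3 young mice of 5 months and 3 old mice of 24 months ate ad libitum. A further 3 mice of 24 months had been on acute dietary restriction since 20 months of age, and 4 mice of 24 months had been on long-term dietary restriction since 5 months of age. No transgene, deletion or drug is recorded for any group.

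Astrocytes respond to injury, inflammation and ageing by changing shape and expression, a state called reactivity. Gfap and Vim encode the intermediate filaments of the astrocyte cytoskeleton, and a rise in GFAP is the classical histological sign of reactivity. Oncostatin M and related cytokines bind receptors that share the gp130 subunit. One of these receptors contains the OSMR protein, and they activate JAK kinases, which phosphorylate STAT3. Phosphorylated STAT3 enters the nucleus and acts as a transcription factor on genes that include Gfap. Serpina3n encodes a secreted inhibitor of serine proteases, and Cd44 encodes the cell surface receptor for hyaluronan.

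The genes lie at 6 separate places of mouse genome build GRCm38, which is mm10. Gfap spans chr11:102887336-102900912 and Stat3 chr11:100885098-100939540, both on the minus strand. Vim spans chr2:13573927-13582826 on the plus strand and Cd44 chr2:102811141-102901665 on the minus strand. Serpina3n spans chr12:104406729-104414329 on the plus strand and Osmr chr15:6813577-6874969 on the minus strand. Stat3 overlaps Stat5a, another STAT factor, on the opposite strand, and the sources used here do not state whether counting used strand.

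The upstream sequences of Gfap, Cd44 and Stat3 are shown because STAT proteins bind palindromic motifs and Gfap is a known STAT3 target. RefSeq promoter windows were matched for 6 of 6 genes, and the 250 bases before each RefSeq start were searched. The motif TTCNNNGAA, which reads the same way on both strands, was in 0 of 6 windows, against 7.02% of all 32851 promoters. The motif with 1 more spacer base, TTCNNNNGAA, was in 2 of 6 windows, those of Gfap and Cd44, against 5.85% of all promoters. Capitals mark that match, which starts 115 bases before the Gfap start and 211 bases before the Cd44 start. The windows of Gfap, Vim and Osmr lie inside the annotated gene spans given above, since an annotated transcript begins further upstream. The Gfap window starts 3462 bases inside the span and holds 0 exonic bases, and those of Vim and Osmr are exonic over all 250 bases. The other 3 windows lie outside the spans. Each sequence is printed 5′ to 3′ on the gene's own strand, from RefSeq on GRCm38.p6.
Gfap promoter, chr11:102897201-102897450, minus strand: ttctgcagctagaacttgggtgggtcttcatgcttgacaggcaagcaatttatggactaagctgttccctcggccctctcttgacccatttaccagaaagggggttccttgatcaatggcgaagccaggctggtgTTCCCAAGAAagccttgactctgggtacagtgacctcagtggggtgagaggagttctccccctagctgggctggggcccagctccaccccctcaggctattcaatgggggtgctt
Cd44 promoter, chr2:102901666-102901915, minus strand: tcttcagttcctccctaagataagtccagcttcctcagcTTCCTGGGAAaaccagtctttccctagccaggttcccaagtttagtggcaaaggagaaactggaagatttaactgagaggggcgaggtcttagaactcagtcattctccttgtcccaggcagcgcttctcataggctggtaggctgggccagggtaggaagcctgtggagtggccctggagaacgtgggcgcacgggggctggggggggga
Stat3 promoter, chr11:100939541-100939790, minus strand: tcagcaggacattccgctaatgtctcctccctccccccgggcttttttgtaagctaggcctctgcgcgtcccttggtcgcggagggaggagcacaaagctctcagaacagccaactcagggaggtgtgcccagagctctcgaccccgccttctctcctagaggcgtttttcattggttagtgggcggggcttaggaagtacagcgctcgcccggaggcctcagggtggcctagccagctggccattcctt
The Stat3 window held neither motif. A match describes letters in this window and is no evidence of binding.

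The 13 libraries held 105759 barcodes and between 38546292 and 80538090 unique molecular identifiers (UMIs, 1 per captured molecule). After filters and doublet removal 98041 nuclei remained, in 45 clusters, of which 22 were named from marker genes and joined into 13 classes. Astrocyte-like nuclei numbered 7458, between 82 and 1456 per library, where the 10 astrocyte markers together made up 28680 CPM. CPM is the number of UMIs of a gene per 1000000 UMIs of the class, summed over the nuclei of 1 mouse. The 6 genes were left out of the clustering and of the markers. A total of 1358 barcode sequences occurred in more than 1 library, with 4 to 40 shared by any pair.

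Gfap marked the astrocyte-like nuclei and the other 5 genes did so to very different degrees. Gfap averaged 135.7 ± 36.3 CPM in astrocyte-like nuclei (SD, n = 13 mice). The next class was fibroblast-like nuclei with 15.6 ± 16.5 CPM (n = 9), and the ranges, 85.3 to 204.4 CPM and 0 to 54.9 CPM, did not overlap. Of the 3906 Gfap UMIs, 76.0% were in astrocyte-like nuclei, which held 3.36% of all UMIs. In nuclei thinned to 1000 UMIs each, the share with Gfap was 6.02% to 13.8% per library in astrocyte-like nuclei, and 0.0402% to 0.260% in dentate granule neuron-like nuclei, a class that should lack it. Median depths before thinning were 1619.5 to 5024.5 and 3895 to 12873 UMIs.

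Vim, Osmr and Stat3 were higher in other classes than in astrocyte-like nuclei. Vim reached 334.5 ± 87.5 CPM in endothelial cell-like nuclei (SD, n = 8), followed by fibroblast-like (39.9 ± 17.0, n = 9), mural cell-like (32.4 ± 31.0, n = 7) and astrocyte-like nuclei (11.7 ± 8.23, n = 13). The endothelial range of 203.6 to 483.8 CPM lay above every other class, while the fibroblast-like, mural cell-like and astrocyte-like ranges overlapped. Osmr followed a similar order of classes. It averaged 169.4 ± 105.8 CPM in endothelial cell-like nuclei, 148.8 ± 58.6 in mural cell-like, 34.5 ± 21.8 in fibroblast-like and 21.7 ± 10.7 in astrocyte-like nuclei. The first pair did not differ beyond their spread, and neither did the last pair. In the 6 neuronal classes the mean was 0 to 0.283 CPM.

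Stat3 was present in every class. Its mean was 194.8 ± 45.4 CPM in microglia-like nuclei (SD, n = 13), 158.3 ± 67.5 in mural cell-like (n = 7), 138.1 ± 34.9 in fibroblast-like (n = 9), 134.7 ± 42.6 in astrocyte-like (n = 13) and 133.9 ± 45.8 in endothelial cell-like nuclei (n = 8). These neighbours overlapped. Oligodendrocyte precursor-like nuclei followed with 105.0 ± 17.8 CPM and oligodendrocyte-like nuclei with 74.0 ± 28.5 CPM. The lowest means were 14.2 ± 3.23 CPM in CA1 pyramidal neuron-like, 16.0 ± 2.69 CPM in CA3 pyramidal neuron-like (n = 13 each) and 16.2 ± 8.32 CPM in hilar mossy cell-like nuclei (n = 8), whose ranges overlapped.

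Cd44 was low in all named classes, with 16.2 ± 5.81 CPM in hilar mossy cell-like nuclei (SD, n = 8), 13.8 ± 6.91 in astrocyte-like (n = 13), 12.9 ± 13.8 in microglia-like (n = 13) and 9.61 ± 6.58 in CA3 pyramidal neuron-like nuclei (n = 13). These ranges overlapped. Mural cell-like and Cajal-Retzius neuron-like nuclei had 0 Cd44 UMIs.

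Serpina3n did not mark the astrocyte-like nuclei as a whole. It had 52 UMIs in 7458 astrocyte-like nuclei and averaged 2.31 ± 1.79 CPM there (SD, n = 13). Oligodendrocyte precursor-like nuclei had 3.55 ± 2.89 CPM, oligodendrocyte-like 3.32 ± 3.12 CPM, dentate granule neuron-like 1.95 ± 0.637 CPM and CA1 pyramidal neuron-like 1.89 ± 0.585 CPM, all with overlapping ranges. Astrocyte-like nuclei held 4.94% of its 1052 UMIs. Its mean against that of oligodendrocyte-like nuclei varied by group, at 2.35 ± 1.53 against 0.687 ± 0.599 CPM in young mice, 2.57 ± 2.23 against 7.42 ± 3.78 CPM in old mice fed ad libitum and 3.57 ± 2.30 against 3.74 ± 1.48 CPM in acute restriction (SD, n = 3 each), and the ranges of the classes overlapped in each. In long-term restriction the means were 1.1 CPM in astrocyte-like and 1.9 CPM in oligodendrocyte-like nuclei (n = 4). The oligodendrocyte-like values of young mice and of old mice fed ad libitum rest on 0 to 1 and 4 to 20 UMIs per mouse, and the gene had too few UMIs to be tested in that class. Serpina3n has near-identical paralogs among which reads can be split or lost, and in astrocyte-like nuclei Serpina3m had 3 UMIs, Serpina3g 1 and Serpina3k, Serpina3c, Serpina3f and Serpina3i 0.

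**Figure D1:**
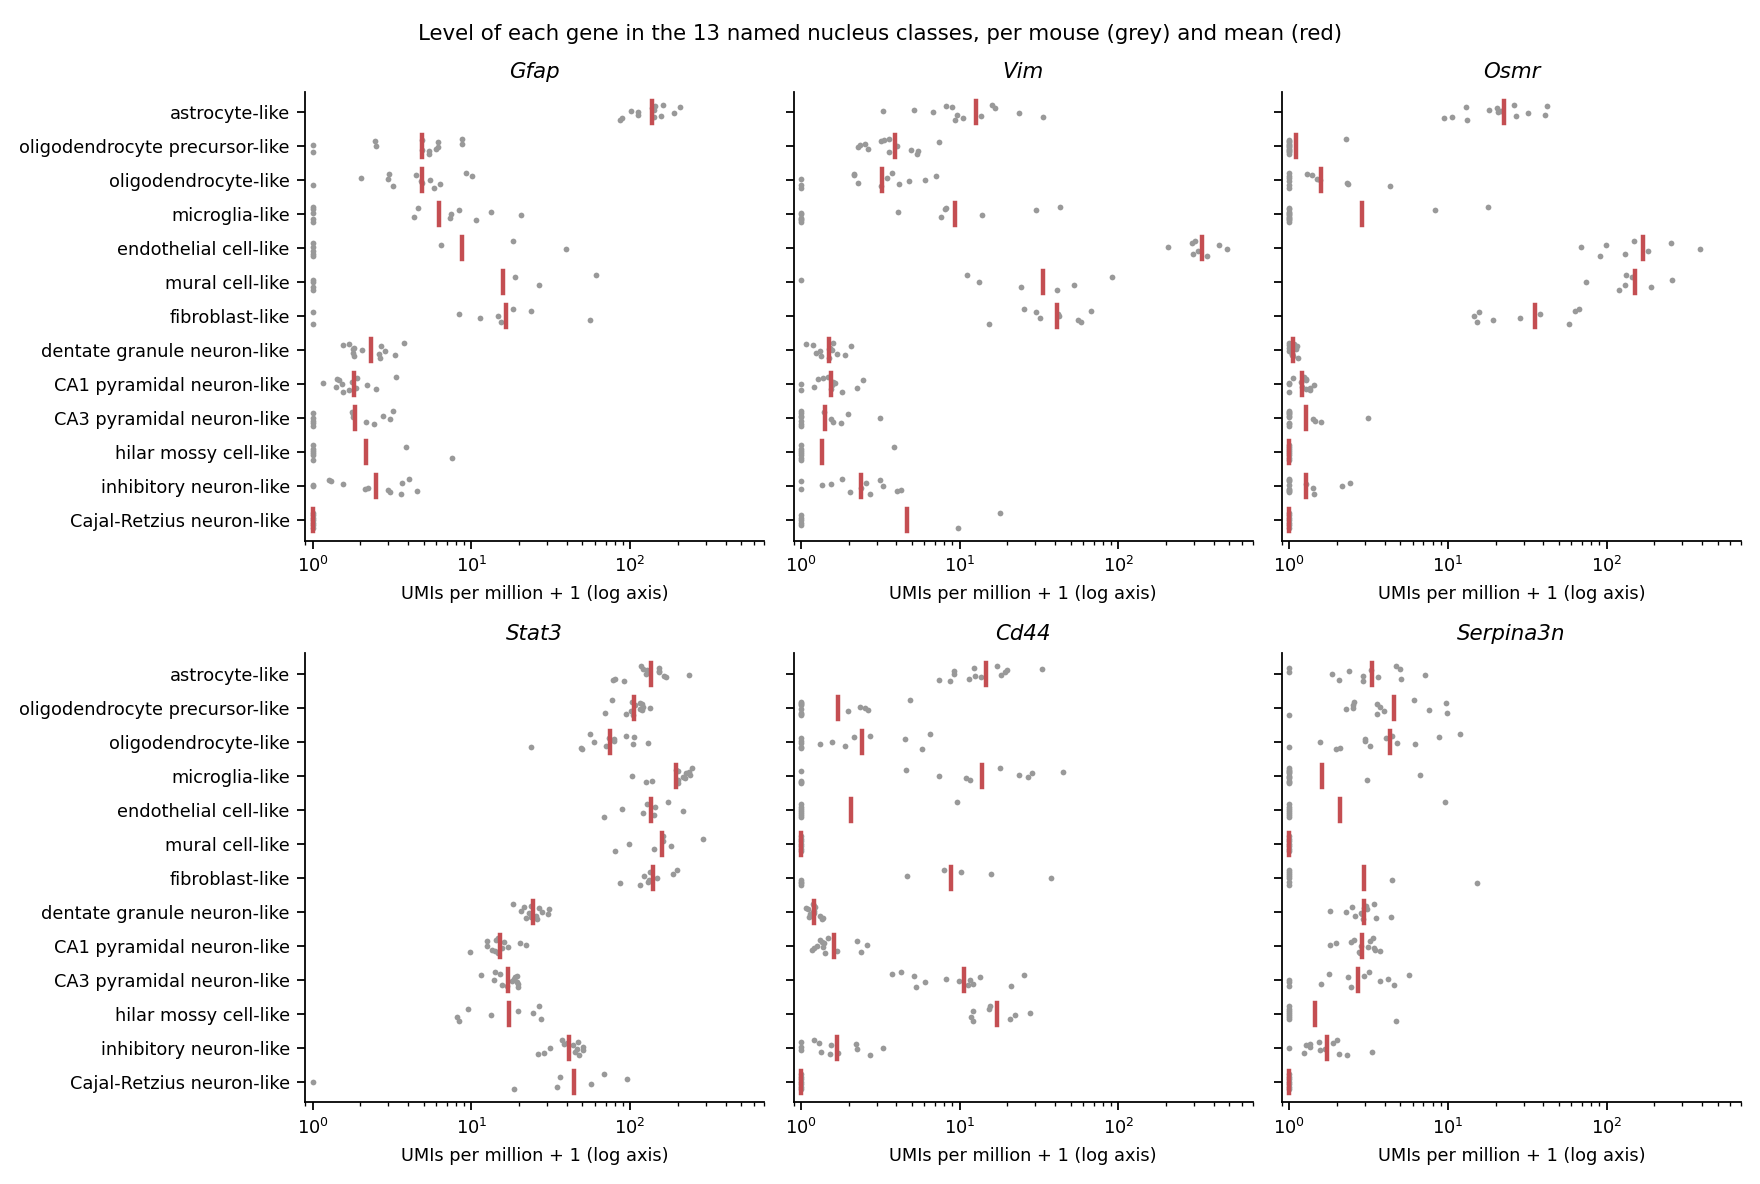
Level of each gene in the 13 named classes, as CPM plus 1 on a log axis, with 1 grey point per mouse with at least 20 nuclei and the mean in red. Gfap peaks in astrocyte-like nuclei and Vim in endothelial cell-like nuclei. Osmr is highest in endothelial cell-like and mural cell-like nuclei, Stat3 is high in glial and vascular classes, and Serpina3n is low throughout.

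By a fixed rule, the 2 genes with the highest Pearson correlation to each gene across the 13 class means were listed, out of 20815 genes. These points share libraries and are a description. Gfap was most like Mlc1 (r = 0.984), an astrocyte membrane protein of the end-feet, and Mt3 (0.959), a brain metallothionein. Osmr was most like Lamb2 (0.997), a laminin chain of the vascular basement membrane, and Itga1 (0.971), a collagen-binding integrin. Vim was most like mt-Co3 (0.983) and Gng5 (0.980), Stat3 most like Tcn2 (0.985) and Eml3 (0.970), Cd44 most like Peak1os (0.893) and F730035M05Rik (0.875), and Serpina3n most like Gpd1 (0.896) and Uck1 (0.852).

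In ageing, which compared old with young mice fed ad libitum, 4 of the 5 tested genes were higher in old astrocyte-like nuclei and 3 of them showed no overlap between groups, yet 0 of 5 passed the test. The test was edgeR's quasi-likelihood test on summed counts, with Benjamini-Hochberg adjustment over 11504 genes and a threshold of 0.05. It called 42 genes, 0.365% of those tested, and 18.3% of genes showed no overlap. At an unadjusted p under 0.05 there were 4 of the 5 genes, against 14.6% of all genes, and DESeq2 called 2 of 5, Osmr and Stat3, against 2.15% of the 7712 genes to which it gave an adjusted p. With a term for the mice numbered 1, edgeR called 3 of 5, Osmr (adjusted p = 0.00752), Stat3 (0.0247) and Gfap (0.0332), and 336 genes in all. The numbers come from the sample labels, which name no batch. Serpina3n had too few UMIs to be tested. The median log2 fold change over all genes was -0.03. The members were chosen with earlier results of these data known, so their counts against all genes are no independent support.

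Stat3 was 79.1, 76.5 and 90.5 CPM in the young mice and 115.9, 152.0 and 120.2 CPM in the old mice fed ad libitum. Every old value lay above every young value. The fitted log2 fold change was 0.69 ± 0.17 (SE), with an edgeR adjusted p of 0.0902 and a DESeq2 adjusted p of 0.0420. Leaving out 1 library at a time gave 0.54 to 0.76 and edgeR adjusted p-values of 0.0651 to 0.3725, and Stat3 passed in 0 of these 6 fits. Stat5a, which overlaps Stat3 on the opposite strand, had a log2 fold change of 0.57 ± 0.50 (edgeR adjusted p = 0.646).

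Osmr, the receptor subunit upstream of STAT3, was 9.69, 8.50 and 12.3 CPM in the young mice and 25.3, 41.3 and 12.02 CPM in the old mice fed ad libitum. The third old value rests on 3 UMIs from 82 nuclei and lies within the young range. The log2 fold change was 1.51 ± 0.32 (SE), just short of the threshold with an edgeR adjusted p of 0.0502, and DESeq2 gave 0.0177. Leaving out 1 library at a time gave 1.17 to 1.68 and edgeR adjusted p-values of 0.0272 to 0.306. Osmr passed in 3 of these 6 fits, those without the first young library, the first old library or the old library numbered 4. The smallest value was that without the second old library.

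Gfap was 141.3, 88.2 and 85.3 CPM in the young mice and 159.5, 142.6 and 204.4 CPM in the old mice fed ad libitum. All 3 old values lay above all 3 young values, with the first young mouse just below the lowest old one. The log2 fold change was 0.68 ± 0.21 (SE), with an edgeR adjusted p of 0.174. Leaving out 1 library at a time gave 0.53 to 0.91, and Gfap passed in 1 of these 6 fits, that without the first young library (edgeR adjusted p = 0.0248). In the other 5 it did not, with adjusted p-values up to 0.4845.

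Cd44 was 10.49, 6.37 and 7.76 CPM in the young mice and 16.1, 11.4 and 32.1 CPM in the old mice fed ad libitum, with no overlap. The counts behind these values were 6 to 65 UMIs per mouse. Over all 13 libraries, 58.2% of the 275 Cd44 UMIs came from 75 of 7458 nuclei, with up to 19 in 1 nucleus. The log2 fold change was 1.05 ± 0.44 (SE), with an edgeR adjusted p of 0.287.

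Vim was 32.3, 9.56 and 8.40 CPM in the young mice and 15.1, 7.24 and 8.02 CPM in the old mice fed ad libitum, with overlap. The log2 fold change was -0.43 ± 0.62 (SE), with an edgeR adjusted p of 0.820, and it turned to 0.45 without the first young library. In each of the 4 groups the mouse numbered 1 had the highest Vim, with 15.1 to 32.3 CPM over these 4 libraries against 2.28 to 12.6 CPM over the other 9. The fitted log2 difference of Vim between number 1 and the other numbers was 1.43 ± 0.22 (SE), a description of the same values and no independent support for that order, and the term called 1145 genes, 9.95% of those tested. The 8 endothelial markers, whose class had the highest Vim level, summed to 8.95 to 46.8 CPM in those 4 libraries and 2.28 to 43.96 CPM in the others. None of the 8 was at 0 over all libraries, and their part in the Vim values was not tested.

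Depth per nucleus moved with age. Median UMIs per astrocyte-like nucleus were 1619.5 to 2535 in the young mice and 2852 to 5024.5 in the old mice fed ad libitum. With this median as a covariate, the log2 fold changes were 1.49 for Osmr, 0.80 for Stat3 and 0.74 for Gfap, and their edgeR adjusted p-values were 0.437, 0.371 and 0.553. With each nucleus thinned to 1000 UMIs they were 1.33, 0.59 and 0.43. Of the 19 marker lists of other classes, 3 showed no overlap by age in the astrocyte-like sums, all higher in old mice, and 16 overlapped. The 6 dentate granule neuron markers were at 787.1 to 861.1 CPM in young and 892 to 1110 CPM in old mice fed ad libitum, and 0 of these 6 markers were at 0. The 7 inhibitory neuron markers, none of them at 0, ranged from 504.9 to 641.7 and from 676 to 877.8 CPM. The committed oligodendrocyte precursor markers ranged from 697.9 to 775.1 and from 827 to 916.5 CPM. Their part in the results was not tested.

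**Figure D2:**
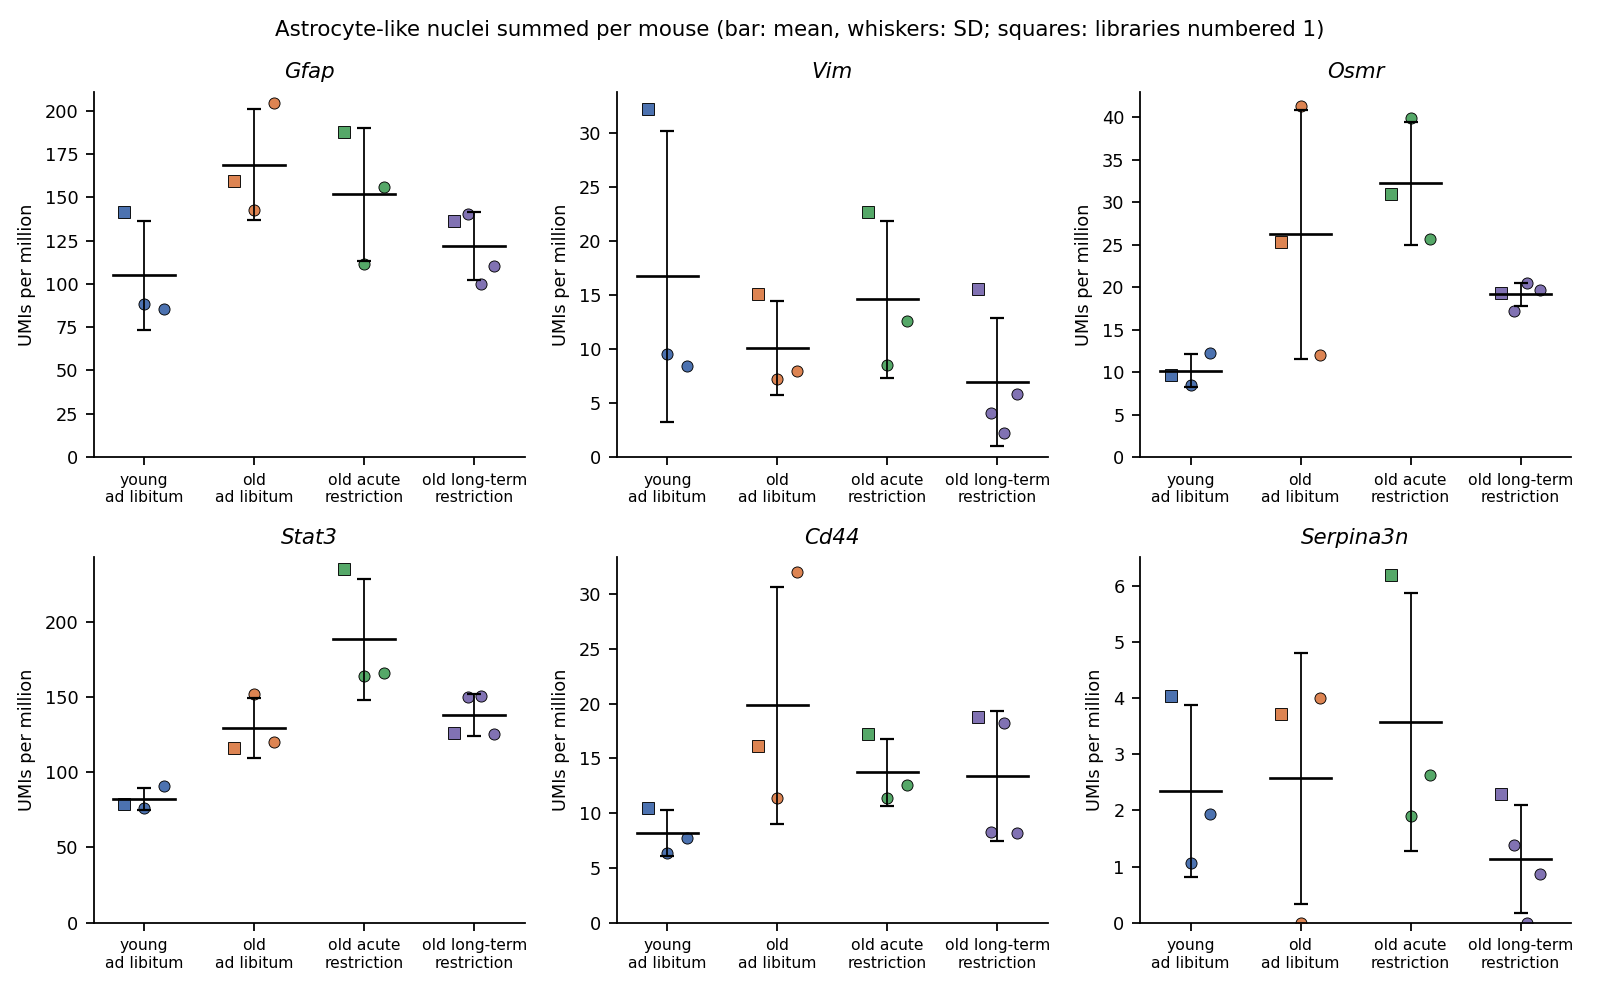
CPM of each gene in astrocyte-like nuclei, with 1 point per mouse, the group mean as a bar and the SD as whiskers, and squares for the libraries numbered 1. Stat3 lies at 76.5 to 90.5 in young mice and at 115.9 or above in all old mice, and each Vim square is the highest point of its group.

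The question of whether restriction altered the old pattern was tested against old mice fed ad libitum, which serve as the control of both restriction comparisons and as the old arm of ageing. In long-term restriction 0 of 5 genes were called by edgeR, where 0% of 11504 genes were called, and 0 of 5 by DESeq2. At an unadjusted p under 0.05 there was 1 gene, Osmr, against 5.3% of all genes. Gfap was 136.3, 140.4, 100.2 and 110.6 CPM under long-term restriction, all below the lowest value of 142.6 in old mice fed ad libitum. Its log2 fold change was -0.41 ± 0.19 (SE), with an edgeR adjusted p of 0.940, and 7.22% of all genes showed no overlap. With each nucleus thinned to 1000 UMIs it was -0.08. Osmr was 19.3, 17.2, 20.5 and 19.6 CPM, a narrow range inside that of the controls, with a log2 fold change of -0.60 ± 0.27 and an edgeR adjusted p of 0.939. This Osmr value was -0.24 without the second old library fed ad libitum and -0.37 in thinned nuclei. Stat3, at 126.2, 150.0, 150.3 and 125.7 CPM, lay within the control range (log2 fold change 0.07 ± 0.15), and its value was 0.24 without the second control. Vim had a log2 fold change of -0.59 ± 0.60 and Cd44 of -0.43 ± 0.38, each with an edgeR adjusted p of 1.0. Leaving out 1 library moved Vim from -1.29, without the first long-term restricted library, to 0.14, without the first control. Cd44 ranged from -0.81 without the first long-term restricted library to -0.18 without the fourth.

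In acute restriction 0 of 5 genes were called by edgeR, against 0.0522% of all genes, and 0 of 5 by DESeq2, which called 0.286% of 8381. At an unadjusted p under 0.05 there was 1 gene, Stat3, against 5.97% of all genes. Stat3 was 234.7, 163.6 and 166.1 CPM, all above the highest value of 152.0 in old mice fed ad libitum. Its log2 fold change was 0.52 ± 0.16 (SE), with an edgeR adjusted p of 0.435, and 13.1% of all genes showed no overlap. Without the 4 libraries numbered 1, an alternative chosen after the data were seen, it was 0.23. Osmr was 31.0, 40.0 and 25.7 CPM and Gfap 187.9, 111.3 and 156.2 CPM, both overlapping the controls, with log2 fold changes of 0.11 ± 0.28 and -0.12 ± 0.21. Neither direction held when 1 library was left out. Osmr ranged from -0.05 without the second acutely restricted library to 0.48 without the second old library fed ad libitum, and was -0.04 without the control numbered 4. Gfap ranged from -0.25 without the first acutely restricted library to 0.05 without the second. Vim had 0.28 ± 0.61 and Cd44 -0.30 ± 0.40, and Vim turned to -0.12 without the first acutely restricted library and reached 1.01 without the first control. Cd44 ranged from -0.5 to -0.11 when 1 library was left out.

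Long-term and acute restriction share no library, and their direct comparison also called 0 of 5 genes with edgeR, where 0% of all genes were called, and 0 of 5 with DESeq2. All 5 fitted values were lower under long-term restriction, and 2 had an unadjusted p under 0.05, against 2.88% of all genes. The smallest, Cd44 at -0.13 ± 0.37, turned to values up to 0.12 when 1 library was left out, which happened without the first acutely restricted library or without the second or the fourth long-term restricted one. Stat3 had a log2 fold change of -0.44 ± 0.14 and Osmr of -0.71 ± 0.26 (SE), each with no overlap between groups and an edgeR adjusted p of 1.0. No overlap was seen for 4.82% of all genes. The Stat3 value was -0.27 without the first acutely restricted library and -0.24 without the 4 libraries numbered 1. Cd44 was 18.8, 8.26, 18.2 and 8.19 CPM under long-term and 17.2, 11.4 and 12.6 CPM under acute restriction, with overlap. Vim was 15.6, 4.13, 2.28 and 5.82 CPM under long-term and 22.7, 8.56 and 12.6 CPM under acute restriction, also with overlap.

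**Figure D3:**
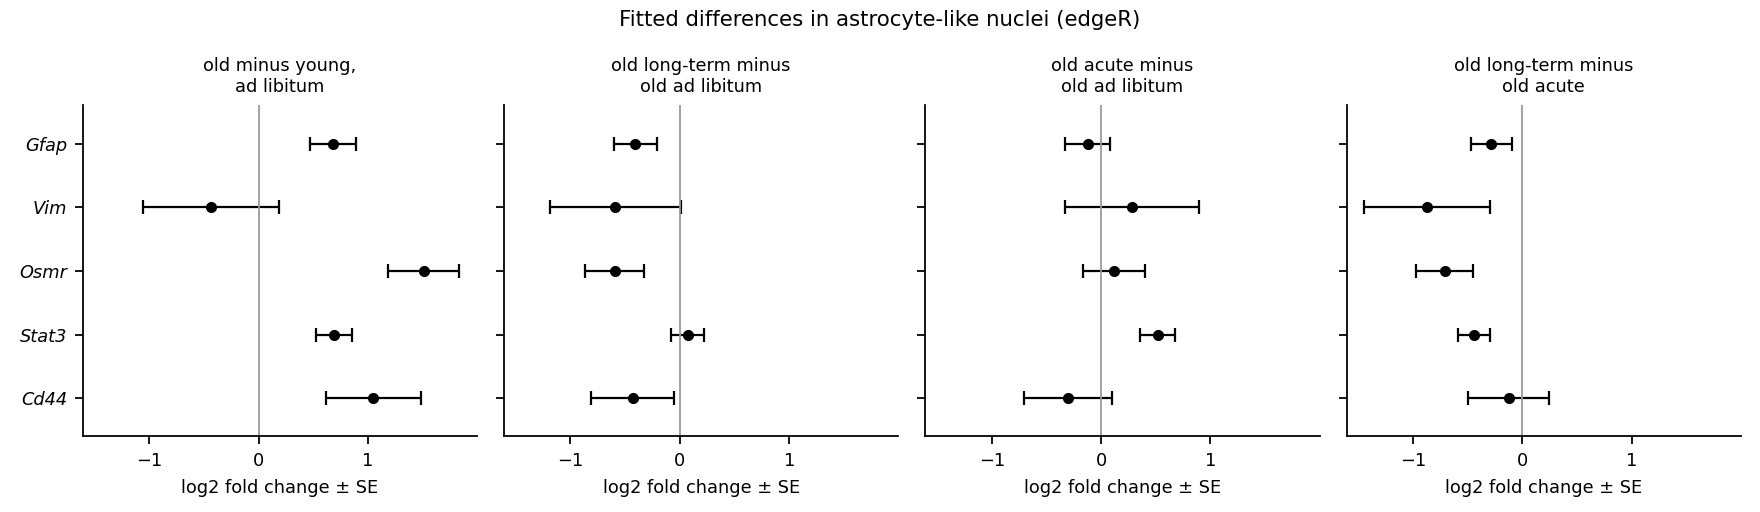
Log2 fold changes with their SE from edgeR for the 5 tested genes in astrocyte-like nuclei, in the 4 comparisons. Osmr, Stat3, Gfap and Cd44 lie right of 0 in ageing, and all 5 lie left of 0 in long-term against acute restriction.

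The share of nuclei with at least 1 UMI, in nuclei thinned to 1000 UMIs, was compared by an exact two-sided permutation test over mice. Thinning left out 24 of 1684 young nuclei and 8 of 1170, 17 of 1711 and 11 of 2893 nuclei in the old groups fed ad libitum, acutely restricted and long-term restricted. Stat3 was detected in 7.33%, 8.21% and 8.01% of young nuclei and in 10.7%, 11.2% and 12.2% of old nuclei fed ad libitum. In acute restriction the shares were 19.6%, 15.8% and 13.8%, and in long-term restriction 12.5%, 15.2%, 14.1% and 12.3%. For Stat3 in ageing, acute and long-term restriction the exact p was 0.1, 0.1 and 0.0857, with an adjusted p of 0.4 in each over 24 tests, of which 0 passed. Groups did not overlap in 5 of the 24 tests, 3 of them of Stat3, and in long-term restriction the lowest restricted share of 12.3% lay next to the highest control share of 12.2%. The share of all genes without overlap was not computed on this measure. With 3 mice against 3 the smallest possible p is 0.1, and with 4 against 3 it is 0.0286. After adjustment over the 24 tests neither can fall below 0.05, so the outcome of 0 passed was fixed by the design. Gfap was detected in 12.4%, 6.02% and 8.01% of young and 11.6%, 8.60% and 12.2% of old nuclei fed ad libitum, which overlapped (exact p = 0.5). Serpina3n was detected in 0% to 0.889% of astrocyte-like nuclei per library, where the upper limit that a count of 0 allows was 0.207% to 3.66%. In dentate granule neuron-like nuclei the share with Serpina3n was 0% to 0.339%.

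Within astrocyte-like nuclei some of the genes were detected together. In thinned nuclei, Stat3 was detected more often beside Gfap than without it in 13 of 13 libraries, at 17.0% against 11.7% over all nuclei. Gfap was detected in 42.2% of the nuclei with Cd44 and 9.93% of those without, with the same direction in 10 of 13 libraries. It was detected in 22.6% of nuclei with Osmr and 9.94% of those without, in the same direction in 9 of the 12 libraries that had thinned nuclei with Osmr. Not every pair did so. Stat3 was detected in 11.2% of nuclei with Vim and 12.2% of those without, higher beside Vim in 4 of the 12 libraries that had nuclei with Vim, and in 14.1% of nuclei with Cd44 and 12.2% of those without, higher beside Cd44 in 4 of 13. These shares are descriptions over nuclei of the same mice. They rest on 128 nuclei with Gfap and Stat3, 35 with Gfap and Osmr, 27 with Gfap and Cd44, 10 with Stat3 and Vim and 9 with Stat3 and Cd44.

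Astrocyte-like nuclei were clustered again by themselves without the 6 genes, a step added after the data were seen. Of the 6 sub-clusters, number 3 held 592 nuclei, led by Ccdc3, Myoc, Nrp2, Sulf2 and Serpinf1, with Cd44 itself among its 10 leading genes. Over all mice it had 448.2 CPM of Gfap, 91.7 of Cd44, 29.1 of Vim and 193.4 of Stat3. The largest sub-cluster, with 3050 nuclei, had 119.0, 6.06, 13.9 and 114.1 CPM of these genes. Serpina3n was at 7.82 CPM in sub-cluster 3, from 14 of its 52 UMIs, and at 2.91 CPM in the largest. In the 11 mice with at least 20 nuclei in both, sub-cluster 3 was above the largest in 11 for Gfap, 11 for Stat3, 10 for Cd44 and 9 for Vim. Of these 11 it was above in 6 for Serpina3n and 5 for Osmr. Osmr did not follow over all mice either, with 18.4 CPM in sub-cluster 3 and 33.6 CPM in sub-cluster 2.

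The mix of sub-clusters moved with age. The largest held 52.7% to 60.8% of astrocyte-like nuclei in young mice and 29.7% to 43.3% in old mice fed ad libitum. Sub-cluster 1, the second largest, held 16.9% to 23.8% and 32.9% to 42.4%. Its Gfap was 69.7 CPM over all mice, below the largest in 12 of 13 mice. Sub-cluster 3 held 5.87% to 6.87% and 6.65% to 18.3%, with overlap. Median UMIs per nucleus over all mice were 2431.5 in the largest sub-cluster and 2891 in sub-cluster 1. Depth also differed between the age groups, as given above, so depth and age cannot be told apart in this mix. The part of this mix in the age differences was not tested. Stat3 was higher in old mice within 3 of the 4 largest sub-clusters, without overlap, and overlapped in sub-cluster 3. The share of all genes without overlap was not computed within sub-clusters. Since the sub-clusters come from the same libraries, this count adds no separate support to the difference over the whole class. In the largest, Stat3 was 67, 73 and 88 CPM in young and 104, 134 and 126 CPM in old mice fed ad libitum. In the second largest it was 62, 81 and 86 CPM in young and 107, 141 and 97 CPM in old mice. In sub-cluster 2 it was 87, 67 and 92 CPM in young mice and 140.0 and 185 CPM in the 2 old mice with at least 20 such nuclei. In sub-cluster 3 it was 228, 99.4 and 109 CPM in young mice and 159 and 171 CPM in the 2 old mice with enough nuclei. Gfap in sub-cluster 3 was 585, 480 and 337 CPM in young mice and 458 and 457 CPM in the 2 old mice fed ad libitum with at least 20 such nuclei, with overlap. No test was made on sub-clusters.

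**Figure D4:**
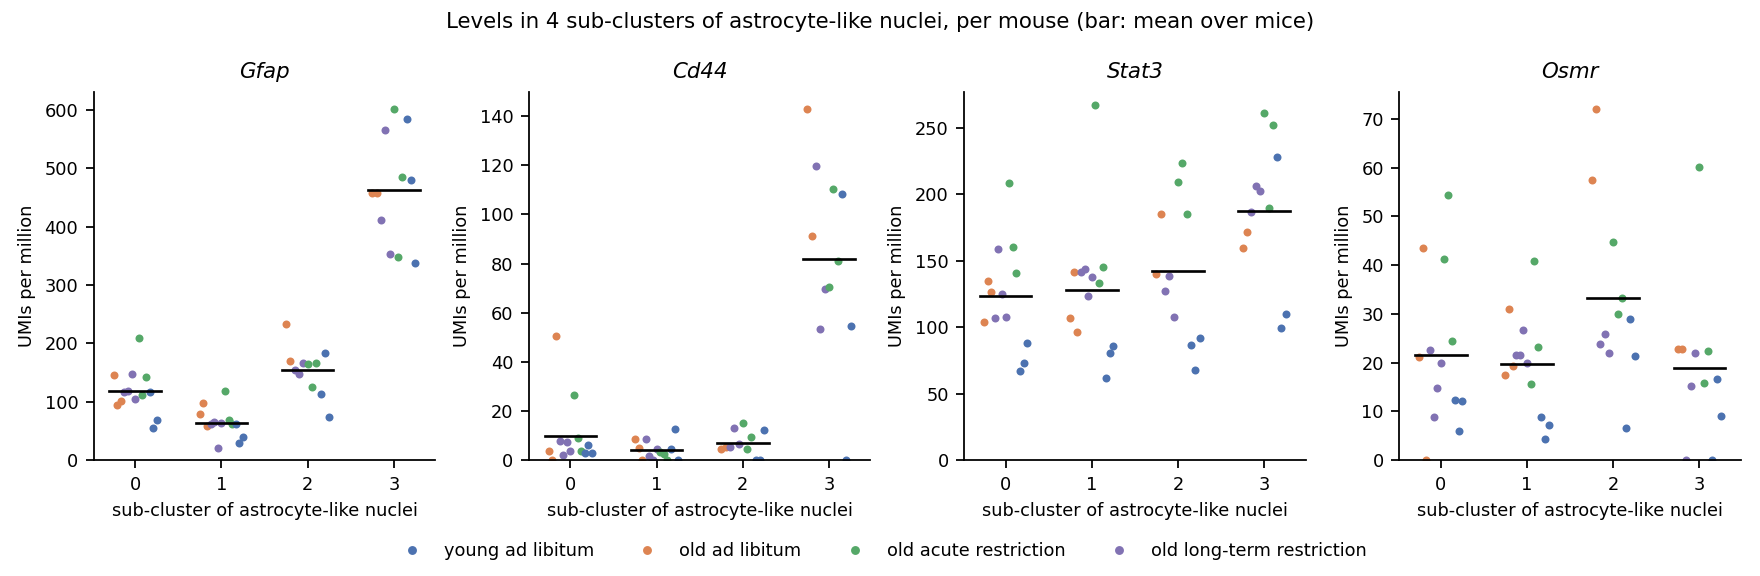
CPM of Gfap, Cd44, Stat3 and Osmr in the 4 largest sub-clusters of astrocyte-like nuclei, with 1 point per mouse with at least 20 nuclei, coloured by group, and the mean as a bar. Sub-cluster 3 has the highest means of Gfap and Cd44, with 1 young mouse at 0 for Cd44, and the young mice lie low for Stat3 in sub-clusters 0, 1 and 2 but not in sub-cluster 3, where 1 young mouse is at 228.

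In the 7 other tested classes, 12 combinations of gene and class passed the filter on low counts, and 1 was called in any of the 4 comparisons. That was Stat3 in oligodendrocyte-like nuclei in ageing. Stat3 was 22.6, 48.4 and 49.0 CPM there in young mice and 54.97, 92.6 and 104.8 CPM in old mice fed ad libitum, with no overlap. The first young value rests on 2 UMIs from 47 nuclei. The log2 fold change was 0.95 ± 0.24 (SE), with an edgeR adjusted p of 0.0150, among 6.25% of 11337 genes called. No overlap was seen for 20.6% of them. DESeq2 gave an adjusted p of 0.0668. Without the second young library, the second old library or the old library numbered 4, the edgeR adjusted p was 0.121, 0.0661 and 0.0848. Median UMIs per nucleus were 1181 to 1661 in young and 1988 to 3144 in old mice fed ad libitum, and with this median as a covariate the log2 fold change was 1.197 and the edgeR adjusted p 0.527.

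Restriction gave no call for Stat3 in oligodendrocyte-like nuclei, at 129.0, 103.5 and 70.0 CPM in acute and 73.1, 77.8, 77.9 and 58.1 CPM in long-term restriction. In the other classes the ageing value of Stat3 was 0.30 ± 0.28 in microglia-like, 0.22 ± 0.18 in oligodendrocyte precursor-like, 0.39 ± 0.22 in inhibitory neuron-like, -0.03 ± 0.15 in dentate granule neuron-like, 0.20 ± 0.25 in CA1 and -0.28 ± 0.24 in CA3 pyramidal neuron-like nuclei (log2, SE). The CA3 groups did not overlap, with old mice lower at 10.51 to 14.1 CPM against 14.7 to 18.7 CPM in young mice, but Stat3 was not called there (edgeR adjusted p = 0.703), and 16.2% of genes showed no overlap. Whether the age difference itself differed between classes was not tested. In ageing edgeR called 1 of the 12 combinations, against 1.78% of all gene tests over the 7 classes together, and DESeq2 called 0, against 5.51%. There 1 of 12 had an unadjusted edgeR p under 0.05, against 19.6%, and 2 of 12 showed no overlap, against 21.6%. In long-term restriction, acute restriction and their direct comparison edgeR called 0 of 12, against 0.0394%, 0.253% and 0.016% of all gene tests. At an unadjusted p under 0.05 there were 2, 1 and 1 of 12 in these 3, against 4.89%, 5.07% and 2.94% of all gene tests. DESeq2 called 0 of 12 in each, against 0.066%, 0.224% and 0.0128%.

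**Figure D5:**
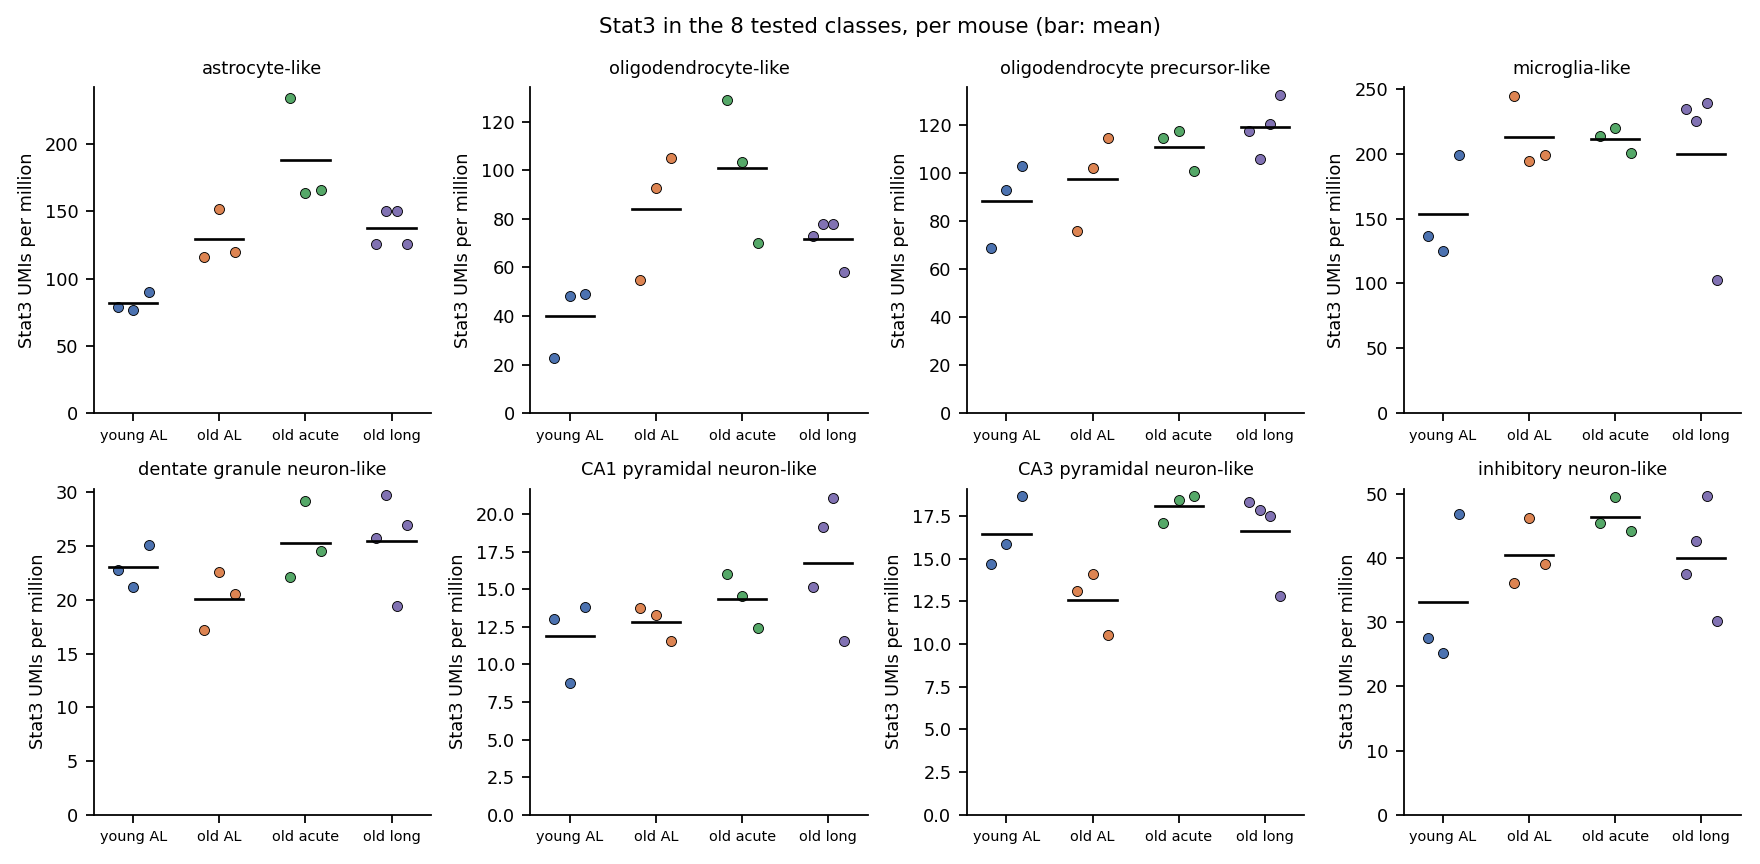
Stat3 CPM in the 8 tested classes, with 1 point per mouse and the group mean as a bar, for young and old mice fed ad libitum (AL) and old mice on acute or long-term restriction. Astrocyte-like and oligodendrocyte-like nuclei show no overlap between young and old mice fed ad libitum, with old mice higher, and CA3 pyramidal neuron-like nuclei show none with old mice lower. The axes differ in scale.

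The other genes of the pathway and of reactivity were counted in astrocyte-like nuclei from 11 lists. Of the 8 gp130 family ligands none had enough UMIs to be tested, and Il6 and Osm, the cytokines interleukin 6 and oncostatin M, had 0 UMIs there. Of 5 tested gp130 family receptors 0 were called in ageing, with a median log2 fold change of 0.11. Beside Osmr, the interleukin 11 receptor Il11ra1 had a log2 fold change of -1.004 ± 0.26 (SE; edgeR adjusted p = 0.107) and no overlap. No overlap was seen for 18.3% of all genes in ageing. The shared subunit gene Il6st had -0.03 ± 0.21. Of 8 tested JAK kinases and STAT factors 7, Stat3 among them, had values above 0 in ageing and 0 were called, with a median of 0.33. Jak1 was at 0.04 ± 0.15 and Jak2 at -0.02 ± 0.21. The log2 CPM of Tyk2 was 4.41, 4.33 and 4.45 in young and 4.48, 4.88 and 5.59 in old mice fed ad libitum, without overlap. Of 5 tested inhibitors of JAK-STAT signalling 0 were called, and the smallest p was that of Pias1, at 0.31 ± 0.13 (edgeR adjusted p = 0.293).

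Among 6 tested pan-reactive astrocyte genes, a list that holds Gfap, Vim, Osmr and Cd44, 1 was called in ageing, against 0.365% of all genes. The list was also chosen with earlier results of these data known, so this count is a description. Aspg, an asparaginase, rose by a log2 fold change of 1.54 ± 0.31 (SE; edgeR adjusted p = 0.0376) with no overlap, which 18.3% of all genes showed. Its log2 CPM was 3.76, 3.48 and 3.53 in young and 4.76, 5.53 and 4.62 in old mice fed ad libitum. The list's median of 0.86 lay between the values of Gfap and Cd44. S1pr3 was the other tested gene of the list that is no member, and its fitted value was below 0. Its log2 CPM was 1.82, 4.33 and 3.95 in young and 2.12, 2.43 and 3.69 in old mice fed ad libitum, with overlap. In long-term restriction 0 of the 6 were called, and Aspg had -0.74 ± 0.26 (edgeR adjusted p = 0.917). Of 4 tested A1-type reactive genes 0 were called. Ggta1 had 1.52 ± 0.44 in ageing (edgeR adjusted p = 0.155), and Fkbp5, a co-chaperone of steroid receptors, had 2.33 ± 0.44 in acute restriction (edgeR adjusted p = 0.0717), with no overlap in either. Over all genes, 18.3% showed no overlap in ageing and 13.1% in acute restriction. Of 2 tested A2-type genes 0 were called, and 1 of these is Stat3.

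Of 16 homeostatic astrocyte genes 16 were tested and 0 were called in any comparison. In ageing 7 had values above 0 and 9 below, with a median of -0.09. The smallest p was that of Slc1a3, a glutamate transporter, at 0.37 ± 0.11 (edgeR adjusted p = 0.148). In acute restriction the water channel gene Aqp4 had -0.60 ± 0.23 (edgeR adjusted p = 0.698). Of 6 tested intermediate filament genes and 5 tested CD44 ligands and hyaluronan genes 0 were called in any comparison, and Ezr, which links CD44 to actin, had 0.51 ± 0.21 in acute restriction (edgeR adjusted p = 0.743). Of 7 serpin A3 paralogs in the matrices 0 could be tested.

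Across the 13 astrocyte-like sums, the genes most like each member by Pearson correlation were Rgl1 (0.964) and Fat3 (0.938) for Stat3, Ldlrad4 (0.931) and Pcdh17 (0.908) for Osmr, and Efemp1 (0.927) and Lrif1 (0.894) for Cd44. They were Vps16 (0.888) and Dzank1 (0.885) for Gfap, Hspd1 (0.934) and Cxcl14 (0.922) for Vim, and 6330576A10Rik (0.913) and Tubg1 (0.892) for Serpina3n. These are the top of 13309 genes, and the points share group and depth.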

How the data were processed

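Single-nucleus libraries from 13 mice were counted by the authors with Cell Ranger 4.0.0 against mm10, per the submitters' processing notes. The deposited unit is UMI counts per gene and barcode. Whether introns or strand were used in counting is not given in the sources used here. Barcodes were kept from 500 genes upward if mitochondrial UMIs did not exceed 5%, and doublets were removed by score (0.8% per 1000 barcodes). Clustering used scanpy 1.11.5 (2000 variable genes without the 6 members, 30 components, resolution 1.0). Clusters were named from at least 3 raised markers. A cluster whose marker score lay more than 3 (log2) below the best of its class stayed unnamed, a rule added after the data were seen. Counts were summed per mouse and class with at least 20 nuclei. The test was edgeR 4.0.16 (TMM, filterByExpr, all 13 libraries), with DESeq2 1.42.0 as an alternative, tested on simulated data, where 33.0% of ageing changes of 1 log2 unit and 84.7% of 2 units were called in astrocyte-like nuclei. Exact permutation tests went through every split of the mice, in Python 3.11.15. Replicates are separate mice. Upper limits for a count of 0 use 3 counts and cover counting error only. Named genes were the 6 members, up to 4 called genes per list or else that of smallest p, and 2 most correlated genes. Outside this rule, Il6st, Jak1, Jak2, Tyk2, Stat5a and S1pr3 were also named, and ligand and paralog genes were given by UMIs. Members and lists were chosen with earlier results of these data known.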

Additional observations from a re-analysis of the deposited data

Results flagged for a closer look

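Cd44 had a signal in nuclei that enter none of the comparisons. In an unnamed cluster of 445 nuclei it reached 94.4 CPM and was found in 57.8% of nuclei, from 8 libraries. Snap25 was at 1503 CPM and Slc17a7 at 123.8 CPM in this cluster, and the astrocyte genes Aqp4 and Slc1a2 were at 29.2 and 389.8 CPM. The 7 libraries with at least 20 such nuclei had 96.4 and 96.0 CPM in young mice, 106.2 CPM in an old mouse fed ad libitum, 98.1 CPM in an acutely restricted mouse, and 91.0, 61.3 and 124.0 CPM in long-term restricted mice.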

How the results depend on the processing

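Of 194 recomputed values for the 11 gene and comparison pairs followed, 171 kept their direction and side of the threshold, 17 passed it where the reported value did not, 5 lost it and 1 reversed. In ageing, the count of genes called in astrocyte-like nuclei rose from 0 to 2 with DESeq2, 1 with doublets kept, 2 with no filter on low counts, 3 with a term for number 1 and 3 without the 4 libraries numbered 1, an alternative chosen after seeing the data. Over all genes the share called was 2.15%, 0.391%, 0.656%, 2.92% and 4.88% in these fits, against 0.365%. Of the 12 alternatives that did not leave out a single library, 6 kept the count at 0. Among these were median UMIs as a covariate, thinned nuclei and DESeq2 size factors, with 0.0956%, 0.417% and 0.374% of all genes called. The others were only the 2 groups of the comparison, the gene length trend removed and members kept for clustering, with 0.0808%, 0.0782% and 0.365%. Leaving out 1 library at a time gave 0 to 2, with 0.0762% to 2.27% of all genes called. In the other classes the count in ageing fell from 1 to 0 with DESeq2 and with median UMIs as a covariate, and leaving out 1 library gave 0 to 1. The Vim log2 fold change in ageing reversed to 0.45 without the first young library, and leaving out 1 library gave -1.15 to 0.45. In the other 3 comparisons every alternative run gave 0 calls in astrocyte-like nuclei and in the other classes. Tests of shares gave 0 calls without thinning and with thinning to 2000 UMIs. No share test could pass after adjustment in this design, whose smallest possible p is 0.1 with 3 mice against 3. These counts are therefore no sign of stability. With 1 library left out, the share tests were not adjusted and give no count of calls. The cause of the changes between alternatives was not tested. The alternative with the largest astrocyte-like cluster alone was not run because the class was 1 cluster, and Cd44 had too few UMIs to be tested in thinned nuclei.

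With the replicate block, which uses the replicate number of the labels, 2 genes were called in astrocyte-like nuclei in ageing, Osmr (edgeR adjusted p = 0.0220) and Stat3 (0.0406), against 0 without it, and the share of all genes called was 2.17% against 0.365%. The numbers as a whole did not pair the mice, although all pairs of libraries numbered 1 deviated together. Deviations from the group means correlated at 0.244 to 0.533 for number 1 but at -0.0891 to 0.145 for number 2, and 6 of 13 mice correlated best with a mouse of their own number. Depth limits Osmr, Cd44, Vim and Serpina3n, which had 3 to 102, 6 to 65, 1 to 61 and 0 to 15 UMIs per mouse in astrocyte-like nuclei.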
